A study of Mus musculus with 9 samples.

Results

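Gene expression was described in the vehicle-treated arm of a mouse podocyte experiment, in which 3 arrays of cells given DMSO were used out of 9 arrays in all. The DMSO arrays were found by their sample titles, and no treated group was compared with them. Total RNA of podocytes grown in culture was labelled with biotin and hybridised to single-colour Affymetrix arrays. All cells of the series had first been left to differentiate at 37 °C for 11 days. The other 6 arrays, 3 of cells given 2.5 µM thapsigargin for 16 hours and 3 of cells given the same with 10 µM forskolin, entered only the choice of a probe set for each gene. DMSO is the solvent in which such drugs are dissolved, and how long the control cells were exposed to it is not stated separately. The labels give neither the name of the cell line, its clone nor its mouse strain, and they call the 3 DMSO samples biological replicates without saying in what they were separate. The spread given below therefore measures these 3 samples and may be partly technical.

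Podocytes are the epithelial cells that wrap the capillaries of the kidney glomerulus with interlocking foot processes. Neighbouring foot processes are joined by the slit diaphragm, a membrane junction built around nephrin (Nphs1) and the nephrin-like Kirrel proteins and tied to actin by adaptors such as Cd2ap. The cells sit on the glomerular basement membrane, whose mature form in the kidney is made of laminin α5β2γ1 and the collagen IV chains α3, α4 and α5, and they hold to it mainly through integrin α3β1. Their identity in the kidney depends on transcription factors that include Wt1, Lmx1b, Tcf21 and Foxc2. Many podocyte lines are grown with a temperature-sensitive immortalising gene that is switched off at 37 °C, and such lines are known for expressing part of this programme at low levels. Whether these cells carry that gene is not stated in the labels.

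A value was available for 22180 genes, each as a log2 signal after RMA, the standard processing of Affymetrix arrays, which makes the distributions of the arrays alike. The mean over the DMSO arrays ran from 2.10 to 13.69 with a median of 6.34. Because the value table carries no detection calls, 1088 olfactory receptor genes, which serve smell in the nose, stood in for probe sets without their transcript. Their 95th percentile was 5.96, 5.84 and 5.80 on DMSO replicates 1, 2 and 3, and this is called the olfactory limit. A gene is called above the limit when it exceeded that value on all 3 arrays, near background when it did so on none, and mixed otherwise. By this rule 12568 genes (56.7%) were above the limit, 8408 (37.9%) were near background and 1204 were mixed. A stricter line was added after the data had been seen, namely the highest of 23 liver, muscle and neuron genes on each array, at 7.62, 7.33 and 7.42. The skeletal muscle actin gene Acta1 set it on all 3 arrays. Above this strict line on all 3 arrays lay 7355 genes (33.2%), and a gene above the limit but not above the strict line on all 3 is said to lie between the lines. High means the top 10% of genes by mean (2218 genes, 10%, from 9.71 upward) and very high the top 1% (221 genes, 0.996%, from 11.77 upward). At the edges, Timp2 was just inside the very high class at 11.77 and Smtn just outside at 11.76, and Ppp4r1 and Kdm1a were just inside and just outside the high class, both at 9.71.

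**Figure D1:**
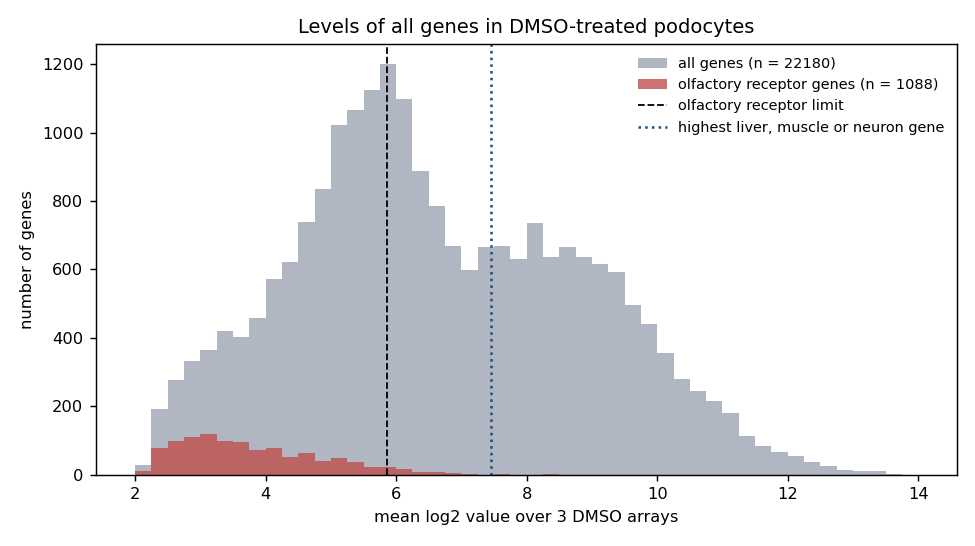
Number of genes (vertical axis) by mean log2 value over the 3 DMSO arrays (horizontal axis), for all 22180 genes in grey and for the 1088 olfactory receptor genes in red. The dashed line is the mean olfactory limit at 5.87 and the dotted line the mean strict line at 7.46. All genes form a lower and an upper hump, and nearly all olfactory receptor genes lie in the lower one.

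These lines place a signal and do not measure an amount of RNA, because probe sets bind their transcripts with different strength. Of 15 ribosomal protein genes, which every cell uses, 11 were above the strict line, and Rps14, Rps20 and Rpl5 lay between the lines while Rplp2 was mixed. Their means were 6.27, 6.39, 7.31 and 5.69. Rps14, Rps20 and Rpl5 were picked out after their values had been seen. A signal near background thus does not show that a transcript is absent, and no fold is given between genes. Fewer cells of a type and less RNA per cell cannot be told apart in RNA of whole cultures. The 3 arrays were alike, with Pearson correlations over the genes of 0.995 to 0.997. The median SD over the arrays was 0.10 for all genes, 0.09 for genes above the limit and 0.06 for high genes. No gene had a test, since a single group offers no comparison, and the number of arrays limits the precision.

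Podocyte genes as a family passed the lines more often than genes in general. Of 104 measured genes in 4 podocyte lists, 87 (83.7%) were above the limit, 60 (57.7%) above the strict line and 35 (33.7%) high, and their median was 8.49. The corresponding shares of all genes were 56.7%, 33.2% and 10%, and all genes include the 1088 olfactory receptor genes that set the limit. For the 781 measured genes of all lists, podocyte lists included, the shares were 74%, 48% and 28.8%. Listed genes as a whole thus also passed the lines more often than genes in general. The podocyte shares were nearer to those of listed genes than to those of all genes. Within the podocyte lists, the cytoskeleton list alone held 16 of the 35 high genes and 7 of the 9 very high ones. Of 15 defining podocyte markers measured, 7 were above the strict line (Podxl, Synpo, Foxc2, Plce1, Cd2ap, Kirrel and Npnt), 5 between the lines (Nphs1, Wt1, Lmx1b, Clic5 and Thsd7a), 1 mixed (Tcf21) and 2 near background (Ptpro and Pla2r1). With the 99th percentile of olfactory receptor genes as the limit (6.74, 6.67 and 6.62), Nphs1, Wt1 and Thsd7a became mixed and Clic5 near background, while Lmx1b stayed above. Of the 15 markers, 4 (26.7%) were high and none was very high. Thus 7 of the 15 podocyte markers were above the highest of the 23 liver, muscle and neuron genes on all 3 arrays. The other 8 did not pass that line, which the single gene Acta1 set. Of 15 measured markers of parietal epithelial cells, described below, 9 passed it. This count therefore does not set podocytes apart from parietal cells. The median of the 23 genes was 5.74, and 8 of them were above the olfactory limit. Nphs1, Wt1, Lmx1b, Clic5 and Thsd7a all had means above that median.

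**Figure D2:**
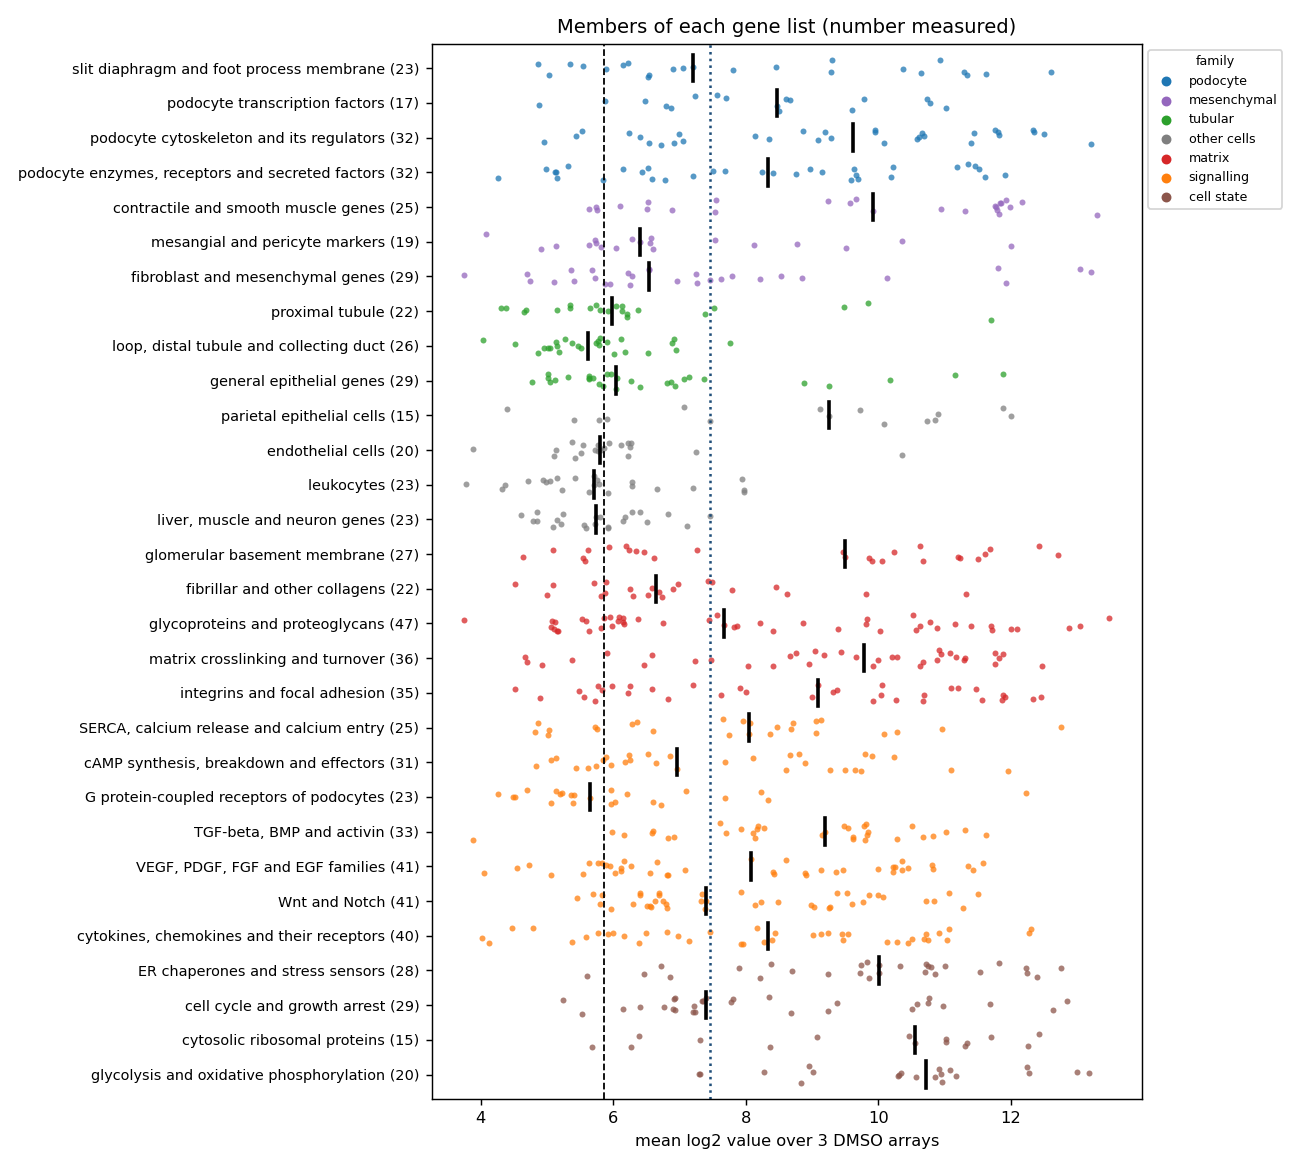
Mean log2 value over the 3 DMSO arrays (horizontal axis) of each measured member of the 30 gene lists, 1 point per gene, coloured by family, with a black bar at the list median. The dashed line is the mean olfactory limit (5.87) and the dotted line the mean strict line (7.46). List medians run from 5.63 for the loop, distal tubule and collecting duct to 10.71 for glycolysis and oxidative phosphorylation.

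In the slit diaphragm and foot process membrane list, 18 of 23 measured genes were above the limit, 11 above the strict line and 7 high. The adaptor Cd2ap had values of 11.36, 11.33 and 11.32 on replicates 1 to 3 (mean 11.33 ± 0.02, SD, n = 3). The laminin receptor dystroglycan (Dag1) read 12.64, 12.55 and 12.65, the protocadherin Fat1 read 11.55, 11.68 and 11.67, and Kirrel, the nephrin partner also called Neph1, read 10.63, 10.62 and 10.68. All of these were in the top 10% of genes, with SDs of 0.02 to 0.07 over the replicates. The junction proteins Tjp1 (10.37 ± 0.01) and Iqgap1 (10.93 ± 0.08) were high as well, and so was Plekhh2 (11.29 ± 0.02). Podocalyxin (Podxl), the sialoprotein that keeps foot processes apart, was above the strict line at 8.50, 8.37 and 8.52. Nephrin itself read 6.54, 6.71 and 6.38. These values were above the olfactory limit on each array and below the strict line on each, as were those of its relatives Kirrel2 (6.23 ± 0.05) and Kirrel3 (7.21 ± 0.06). Under the 99th percentile limit Nphs1 was mixed, since it passed that limit only on replicate 2, and Kirrel2 was near background. Nck1, an adaptor that binds nephrin, was above the strict line at 7.82 ± 0.15, and Nck2 lay between the lines at 7.05 ± 0.17. The calcium channel Trpc6, mutated in familial focal segmental glomerulosclerosis, was near background at 5.05, 4.86 and 4.68. The channel Trpc5 (5.03 ± 0.02), the tight junction gene Cldn5 (5.55 ± 0.26) and the receptor phosphatase Ptpro (5.35 ± 0.04) were near background too, and the polarity gene Crb2 was mixed at 6.08, 5.70 and 5.91.

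The upstream sequences of Cd2ap, a high gene, and of Ptpro, a gene near background, are shown because promoter CpG content differed along the whole ranking, as described at the end. Each is the 250 bases before the start in the RefSeq promoter table for GRCm38.p6, written 5′ to 3′ on the gene's strand, with every CpG in capitals. The Cd2ap window (chr17:42876425-42876674, minus strand) holds 31 CpG and the Ptpro window (chr6:137252049-137252298, plus strand) holds 3.
Cd2ap: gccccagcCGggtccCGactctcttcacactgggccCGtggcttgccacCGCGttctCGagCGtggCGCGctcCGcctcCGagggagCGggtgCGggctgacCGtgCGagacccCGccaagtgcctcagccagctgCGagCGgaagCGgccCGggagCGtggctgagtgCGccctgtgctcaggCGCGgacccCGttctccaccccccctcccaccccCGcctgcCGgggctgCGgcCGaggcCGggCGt
Ptpro: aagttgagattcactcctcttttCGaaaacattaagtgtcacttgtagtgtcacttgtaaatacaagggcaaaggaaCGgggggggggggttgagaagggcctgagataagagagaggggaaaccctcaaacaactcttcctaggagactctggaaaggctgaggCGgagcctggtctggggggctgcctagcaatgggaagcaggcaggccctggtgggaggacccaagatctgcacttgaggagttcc

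Of 17 measured podocyte transcription factors, 15 were above the limit, 10 above the strict line and 4 high. Pax2, a gene of the developing nephron that is silenced in mature podocytes, read 10.88, 10.64 and 10.68. Wt1, the zinc finger factor that takes its place in the mature cell, read 6.69, 6.95 and 6.76. The Pax2 signal was in the top 10% of genes by its mean, and the Wt1 signal was above the olfactory limit on every array and below the strict line on every array. Foxc1 (10.78 ± 0.09), Klf6 (11.02 ± 0.08) and the Hippo pathway partner Tead1 (9.79 ± 0.05) were high. Foxc2 (7.70 ± 0.09) and Foxd1 (8.51 ± 0.04), forkhead factors of the developing kidney, were above the strict line without being high. Lmx1b, mutated in nail-patella syndrome, read 7.41, 7.18 and 7.11, below the strict line on each array. Lhx2 (6.87 ± 0.14) and Klf15 (6.48 ± 0.11) also lay between the lines, Tcf21 was mixed at 5.88 ± 0.10 and Dach1 was near background at 4.89 ± 0.17.

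**Figure D3:**
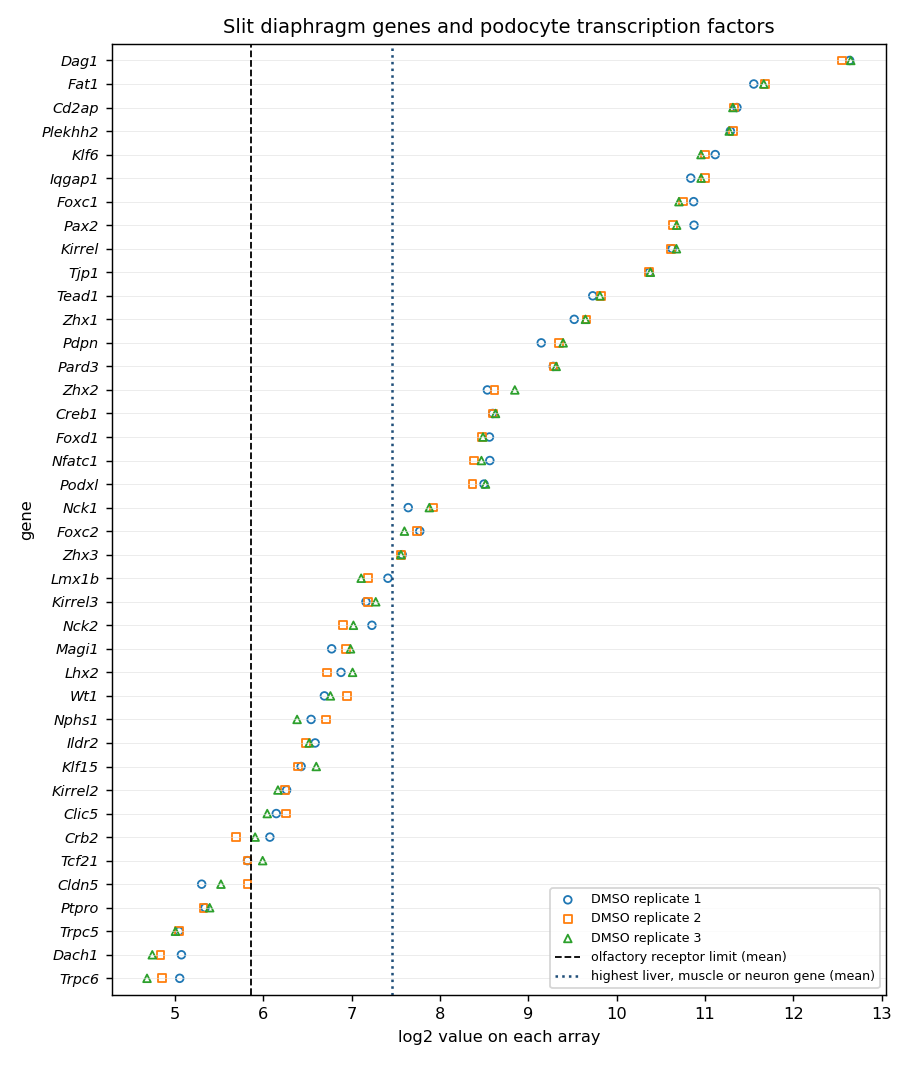
Log2 value on each of the 3 DMSO arrays (horizontal axis) for the 23 slit diaphragm genes and 17 podocyte transcription factors measured, ordered by mean. Circles, squares and triangles are replicates 1, 2 and 3, and the lines mark the mean olfactory limit (5.87) and the mean strict line (7.46). Dag1, Fat1 and Cd2ap stand at the top, Nphs1 and Wt1 between the lines, and Dach1 and Trpc6 at the bottom.

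The podocyte cytoskeleton was the strongest of the podocyte lists, with 29 of 32 measured genes above the limit, 22 above the strict line, 16 high and 7 very high. The intermediate filament vimentin (Vim) read 13.20, 13.20 and 13.26. The actin crosslinker Actn4, mutated in a dominant form of glomerulosclerosis, read 11.80, 11.85 and 11.82 and was very high, as were its relative Actn1 (12.51 ± 0.04), vinculin (Vcl, 12.34 ± 0.03) and ezrin (Ezr, 12.35 ± 0.03). Ezrin links podocalyxin to actin through Slc9a3r2, which was above the strict line at 9.09 ± 0.07. The small GTPases Rhoa (11.77 ± 0.01) and Cdc42 (11.80 ± 0.09) were very high and Rac1 (11.40 ± 0.03) was high, although Rhoa and Cdc42 each have another probe set that was not above the limit. Synaptopodin (Synpo), an actin-associated protein that marks differentiated foot processes, read 9.25, 9.14 and 9.20. It was above the strict line on all arrays and below the high class. The disease genes Myh9 (11.44 ± 0.04), Myo1e (10.58 ± 0.07) and Inf2 (9.96 ± 0.05) were high. Dendrin (Ddn, 5.53 ± 0.21), Synpo2 (5.44 ± 0.02) and Nebl (4.96, the same on each array to 2 decimals) were near background, and the cell cycle inhibitor Cdkn1c, typical of resting podocytes, lay between the lines at 6.40 ± 0.04.

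Among podocyte enzymes, receptors and secreted factors 25 of 32 measured genes were above the limit, 17 above the strict line and 8 high. The membrane peptidase neprilysin (Mme) read 11.88, 11.95 and 11.91 and was the only very high gene of this list. The phospholipase Plce1 (11.19 ± 0.05), mutated in early nephrotic syndrome, was high, and so were nephronectin (Npnt, 11.61 ± 0.03), the protease Ctsl (11.52, the same on each array to 2 decimals) and the sulfatase Sulf2 (11.46 ± 0.07). Vegfa, the growth factor podocytes supply to the glomerular endothelium, read 10.35, 10.17 and 10.17. These values put the secreted factor in the top 10% of genes. Cyclooxygenase 2 (Ptgs2, 9.64 ± 0.08), aminopeptidase A (Enpep, 9.60 ± 0.11) and the glucocorticoid receptor (Nr3c1, 9.69 ± 0.02) were above the strict line. Thsd7a, an antigen in membranous nephropathy, lay between the lines at 6.78 ± 0.05, while another such antigen, Pla2r1, was near background at 5.16 ± 0.02. Angpt1 was mixed at 5.58, 5.98 and 5.97. Agtr1a (5.14 ± 0.18), Robo2 (5.32 ± 0.23), Gpc3 (5.12 ± 0.09), Ntrk3 (4.99 ± 0.03) and Ptger2 (4.26 ± 0.03) were near background.

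Smooth muscle and contractile genes were among the strongest of all. Of 25 measured, 22 were above the limit, 16 above the strict line, 13 high and 9 very high, and the list median was 9.93. Smooth muscle α-actin (Acta2), a marker of myofibroblasts, read 13.32, 13.33 and 13.27 and ranked 12th of 22180 genes. Transgelin (Tagln) read 12.00, 11.89 and 12.06, tropomyosin 1 (Tpm1) read 11.96, 11.93 and 11.90, and caldesmon (Cald1) read 11.81, 11.78 and 11.88. Each of these actin filament proteins was very high, with all replicates within 0.17 of each other. The calponin Cnn2 (11.85 ± 0.06) and the actins Actb (11.84 ± 0.04) and Actg1 (12.17 ± 0.04) belonged to the same class. Desmin (Des), the intermediate filament of muscle, was near background at 5.74 ± 0.08, as was Tpm2 at 5.63 ± 0.24, and the enteric actin Actg2 was mixed at 5.76 ± 0.18. Myh11 (6.52 ± 0.04), the smooth muscle myosin, and Myocd (6.11 ± 0.11), the coactivator of smooth muscle identity, lay between the lines, and both were picked out after their values had been seen.

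Serum response factor (Srf) drives many contractile genes through a sequence called the CArG box, in which CC and GG flank 6 letters that are each A or T. Srf read 9.32, 9.24 and 9.15 and was above the strict line, and it was picked out for its role in this motif after its value had been seen. Among 19 contractile genes with a promoter in the table, a CArG box was found for 4 (Cnn2, Myl9, Srf and Actg1), or 21.1%, against 231 of 15778 genes (1.46%) overall and 3 of 19 in the liver, muscle and neuron list. The genes with a box do not include Acta2, Tagln, Tpm1 or Cald1, and not every list member has a promoter in the table. By level class the box was found in 1.62% of promoters near background and 1.39% above the limit. It was found in 2.01% of high and 3.92% of very high ones. A part of Srf in the levels given here was not tested. The window ran from 250 bases before to 50 bases after the start, both strands were read, and the box can overlap a TATA box. The Actg1 sequence before the start is shown because it carries the box in capitals, 90 bases before the start (GRCm38.p6, chr11:120348496-120348745, minus strand).
Actg1: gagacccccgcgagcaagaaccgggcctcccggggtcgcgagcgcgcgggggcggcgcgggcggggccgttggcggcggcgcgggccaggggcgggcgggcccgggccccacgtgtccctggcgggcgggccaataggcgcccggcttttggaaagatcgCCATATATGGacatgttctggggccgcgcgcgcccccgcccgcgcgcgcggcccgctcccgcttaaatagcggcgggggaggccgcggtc

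Other mesenchymal genes ranged from very high to near background. Of 29 fibroblast and mesenchymal genes, 19 (65.5%) were above the limit, 10 (34.5%) above the strict line and 5 (17.2%) high. The shares of all genes were 56.7%, 33.2% and 10%, so the count above the strict line was near that of genes in general. Fibronectin (Fn1) read 13.04, 13.08 and 13.03. The mesenchymal cadherins Cdh2 (11.81 ± 0.03) and Cdh11 (11.92 ± 0.08) were very high, and the factor Snai2, a repressor of E-cadherin, was high at 10.14 ± 0.17. Twist1 (8.54 ± 0.13) was above the strict line. Typical products of interstitial fibroblasts were low: decorin (Dcn) read 5.06, 5.07 and 5.21 and lumican (Lum) 4.03, 3.63 and 3.61, both near background on each array. Fap (4.75 ± 0.12), Prrx1 (5.37 ± 0.01), Meox1 (5.42 ± 0.10), Meox2 (4.70 ± 0.25) and Dpt (5.69 ± 0.14) were near background too, and Col3a1, Postn and Pi16 were mixed. Among 19 mesangial and pericyte markers, 12 (63.2%) were above the limit and 5 (26.3%) above the strict line, not far from those shares of all genes. Pdgfrb, the PDGF receptor of these cells, was high at 10.36 ± 0.03, while Rgs5 (4.92 ± 0.07) and Higd1b (4.08 ± 0.05) were near background and Pdgfra and Itga8 were mixed.

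Tubule genes passed the strict line less often than genes in general, with a few far up the ranking. Of 22 proximal tubule genes, 11 (50%) were above the limit and 3 (13.6%) above the strict line. Of 26 genes of the loop, distal tubule and collecting duct, 7 (26.9%) and 1 (3.85%) were above these lines. Near background were 8 (36.4%) of the proximal and 13 (50%) of the loop and distal genes. The shares of all genes were 56.7%, 33.2% and 37.9%. By the olfactory limit the proximal list was thus not far from genes in general, and the loop and distal list was lower. The water channel Aqp1 read 11.71, 11.69 and 11.72, the bicarbonate transporter Slc4a4 read 9.83, 9.85 and 9.86, and the endocytic receptor megalin (Lrp2), which podocytes are also described to carry, read 9.34, 9.66 and 9.46. These were the 3 proximal genes above the strict line, and the first pair were high. Megalin's partner cubilin (Cubn) was mixed at 5.92 ± 0.00. The injury marker Havcr1 (4.38 ± 0.12), the androgen-regulated Kap (4.30 ± 0.04) and the lactate transporter Slc5a12 (4.66 ± 0.18) were near background. In the distal lists the magnesium channel Trpm6, at 7.72, 7.87 and 7.69, was above the strict line. The furosemide-sensitive cotransporter Slc12a1 (4.51 ± 0.21), calbindin (Calb1, 4.04 ± 0.01) and the potassium channel Kcnj1 (5.15 ± 0.15) were near background, and uromodulin (Umod) was mixed at 5.78 ± 0.05.

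General epithelial genes passed the limit about as often as all genes, with 16 of 29 above it (55.2%, against 56.7%). Above the strict line were 5 (17.2%, against 33.2%) and high were 3 (10.3%, against 10%). Pax8, a factor of the renal epithelial lineage, read 12.00, 11.83 and 11.82 and was very high. The kidney-specific cadherin Cdh16, found on tubule cells, was high at 11.16 ± 0.06, and so was plakoglobin (Jup) at 10.18 ± 0.06. The tight junction gene Cldn1 (9.26 ± 0.08) and the protease inhibitor Spint2 (8.88 ± 0.14) were above the strict line. E-cadherin (Cdh1), named after its values had been seen, lay between the lines at 6.14, 6.04 and 5.97. Its other probe set was near background at a mean of 4.93, and Cdh1 was near background too with the mean of its probe sets, with the 99th percentile of olfactory receptor genes and with the median of all genes as the limit. Epcam (5.04 ± 0.05), Esrp1 (4.77 ± 0.09), Cldn7 (5.01 ± 0.12), Dsp (5.33 ± 0.08) and Marveld2 (5.02 ± 0.01) were near background, and the keratins Krt18 and Krt19 were mixed. In all, 24 of the 29 epithelial genes were not above the strict line.

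Markers of parietal epithelial cells, which line Bowman's capsule and share an origin with podocytes, were mostly above both lines. Of 15 measured, 11 (73.3%) were above the limit, 9 (60.0%) above the strict line and 7 (46.7%) high, with a median of 9.26. For all genes these figures were 56.7%, 33.2% and 10%, with a median of 6.34. The list shares Pax2, Pax8, Cldn1, Akap12 and others with the lists above. Aldh1a2 (10.91 ± 0.04), which makes retinoic acid, Ncam1 (10.86 ± 0.04), Cd9 (10.09 ± 0.08) and Lad1 (9.72 ± 0.06) were high, and Vcam1 read 8.85, 9.08 and 9.44. Prom1 (4.41 ± 0.15) and Scin (5.41 ± 0.22) were near background. Endothelial and leukocyte genes were low, with 1 of 20 (5.0%) and 3 of 23 (13.0%) above the strict line, against 33.2% of all genes. The endothelial exception was Ehd3 at 10.36 ± 0.05, while Pecam1 (5.77 ± 0.04), Emcn (3.88 ± 0.02) and Tek (5.13 ± 0.16) were near background and Cdh5 was mixed. The leukocyte exceptions were Csf1r (7.98 ± 0.10), Cd14 (7.97 ± 0.14) and Cd68 (7.94 ± 0.04), while the pan-leukocyte Ptprc read 3.87, 3.67 and 3.80 and Ms4a1, Cd8a, Adgre1 and Lyz2 were near background. The part of other cell types in the levels reported here was not tested.

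Of 27 basement membrane genes measured, 22 were above the limit, 15 above the strict line and 13 high, with a median of 9.50. The widespread collagen IV chains Col4a1 and Col4a2 read 11.28, 11.18 and 11.23, and 11.24, 11.17 and 11.21. Col4a5 read 10.29, 10.21 and 10.23. These were all in the top 10%. Its partners in the mature glomerular network lay between the lines, Col4a3 at 6.66, 6.71 and 6.48 and Col4a4 at 7.42, 7.25 and 7.15. Among laminins, the immature glomerular chain Lamb1 was high at 11.50 ± 0.01, and Lama5 (9.91 ± 0.02) and Lamc1 (9.86 ± 0.06) were high too. Lamb2, the chain that replaces Lamb1 in the mature filter, was above the strict line at 9.46, 9.48 and 9.45 and below the high class. Lama1 (6.34 ± 0.09) and Lamb3 (6.24 ± 0.08) lay between the lines, and Lama2 (5.55 ± 0.06) and Lama4 (4.64 ± 0.11) were near background. Tinagl1 (12.72 ± 0.07) and Sparc (12.43 ± 0.02) were very high. Nidogen 2 (Nid2, 11.68 ± 0.06), agrin (Agrn, 10.68 ± 0.05) and perlecan (Hspg2, 10.63 ± 0.08) were high.

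**Figure D4:**
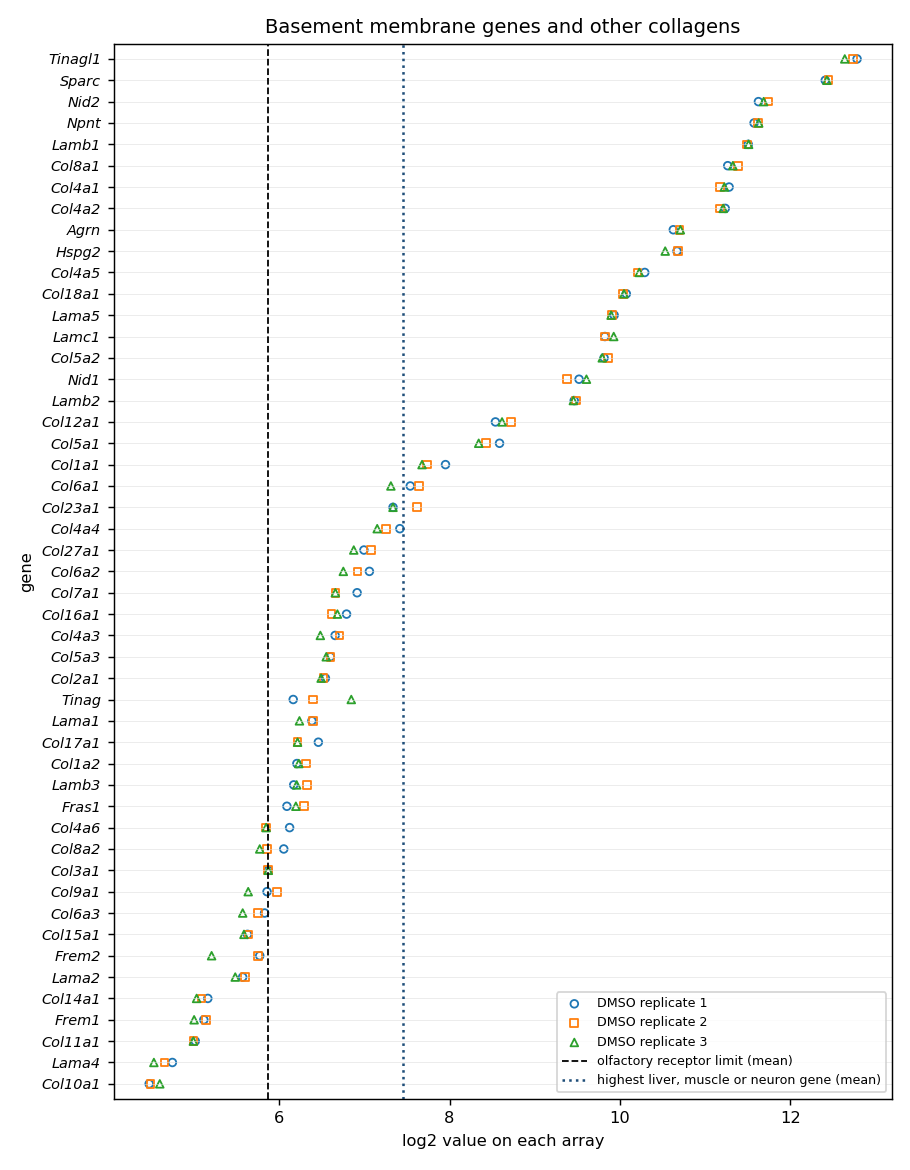
Log2 value on each of the 3 DMSO arrays (horizontal axis) for the basement membrane genes and other collagens measured, ordered by mean. Circles, squares and triangles are replicates 1, 2 and 3, and the lines mark the mean olfactory limit (5.87) and the mean strict line (7.46). Col4a1, Col4a2 and Col4a5 lie above 10 on every array, and Col4a3 and Col4a4 lie between the lines.

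Fibrillar and other collagens were lower in the ranking than the basement membrane genes. Of 22 measured, 15 (68.2%) were above the limit, 5 (22.7%) above the strict line and 2 (9.09%) high. The shares of all genes were 56.7%, 33.2% and 10%. Collagen VIII α1 (Col8a1) was high at 11.32 ± 0.06 and Col5a2 at 9.82 ± 0.03. Col1a1, the main fibrillar chain of scar tissue, read 7.95, 7.74 and 7.68. Its partner Col1a2, named after its values had been seen, read 6.21, 6.32 and 6.23, and another probe set of that gene was not above the limit. Col3a1 was mixed at 5.87 ± 0.00, and Col6a3 (5.72 ± 0.13), Col14a1 (5.09 ± 0.07) and Col10a1 (4.52 ± 0.07) were near background. Of 47 glycoprotein and proteoglycan genes, 34 were above the limit, 23 above the strict line and 5 very high. Thrombospondin 1 (Thbs1), which can release TGF-β from its latent form, read 13.47, 13.51 and 13.49 and ranked the 4th of all genes. The matricellular Ccn1 (12.88 ± 0.10), tenascin C (Tnc, 12.09 ± 0.05) and Ccn2 (12.00 ± 0.02) were very high, and the last has another probe set that was not above the limit. Ccn1, Ccn2 and Ankrd1 are well-known targets of the Hippo pathway coactivators, and Ankrd1 read 13.05 on every array.

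Enzymes that crosslink or degrade matrix were strong, with 31 of 36 above the limit, 27 above the strict line and 18 high. The inhibitor Timp3, which is bound in basement membranes, read 12.46, 12.49 and 12.47, and Timp2 (11.77 ± 0.02), the plasminogen activator Plat (11.89 ± 0.09) and the crosslinker Loxl1 (11.77 ± 0.11) were very high. The membrane metalloproteinase Mmp14 was high at 11.08 ± 0.01. The stromelysin Mmp3 (4.67 ± 0.13), the collagenase Mmp13 (4.70 ± 0.03) and Timp4 (4.92 ± 0.08) were near background. Of 35 integrin and focal adhesion genes, 27 (77.1%) were above the limit, 21 (60.0%) above the strict line and 15 (42.9%) high. Among all genes these shares were 56.7%, 33.2% and 10%. Both chains of the podocyte laminin receptor were very high, with Itga3 at 11.91, 11.87 and 11.88 and Itgb1 at 12.42, 12.47 and 12.48. Their partner tetraspanin Cd151 was very high at 11.87 ± 0.01. Itgb5 (11.91 ± 0.01) was in the same class, while Itga4 (4.89 ± 0.20), Itga2 (5.56 ± 0.18) and the blood and skin kindlins Fermt3 (5.48 ± 0.14) and Fermt1 (4.52 ± 0.02) were near background.

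Calcium and cAMP genes set the starting point for the drugs used in the series, since SERCA pumps, which fill the endoplasmic reticulum (ER) with calcium, are the target of thapsigargin, and adenylyl cyclases are that of forskolin. Of the pumps, Atp2a2 (SERCA2) read 11.00, 10.95 and 10.97 and was high. The muscle pump Atp2a1 was mixed at 5.74, 6.05 and 5.48. Of 25 genes of calcium stores and entry, 19 were above the limit and 16 above the strict line. The ER calcium sensors Stim1 (8.72 ± 0.10) and Stim2 (9.14 ± 0.05) and the channel Orai3 (8.69 ± 0.05) were above the strict line, and the ryanodine receptors Ryr2 (5.02 ± 0.06) and Ryr3 (4.82 ± 0.04) were near background. Of 31 cAMP genes, 22 (71.0%) were above the limit and 15 (48.4%) above the strict line, against 56.7% and 33.2% of all genes. Among the cyclases Adcy6 was above the strict line at 9.71, 9.57 and 9.65. Adcy1 and Adcy4 were mixed and Adcy2 (5.62 ± 0.13), Adcy5 (5.74 ± 0.17) and Adcy8 (5.44 ± 0.09) were near background. The catalytic kinase subunit Prkaca was high at 11.10 ± 0.04 and the inhibitory G protein Gnai2 very high at 11.96 ± 0.02. Gnas, the stimulatory G protein, lay between the lines at 6.64, 6.65 and 6.65, and was named after its values had been seen. The phosphodiesterases Pde3a (4.83 ± 0.17), Pde3b (5.14 ± 0.19) and Pde4d (5.06 ± 0.05) were near background, and Pde8a (8.90 ± 0.08) and Pde7a (8.80 ± 0.05) were above the strict line.

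Receptors coupled to G proteins were mostly low. Of 23 measured, 10 (43.5%) were above the limit, 12 (52.2%) near background and 3 (13.0%) above the strict line. The shares of all genes were 56.7%, 37.9% and 33.2%. The thrombin receptor F2r read 12.24, 12.27 and 12.17 and was very high. The nucleotide receptor P2ry2 (8.34 ± 0.03) and the sphingosine receptor S1pr2 (8.24 ± 0.11) were the others above the strict line. Both type 1 angiotensin receptor genes, Agtr1a (5.31, 4.96 and 5.14) and Agtr1b (5.40 ± 0.10), and the type 2 receptor Agtr2 (4.52 ± 0.04) were near background. Of the prostaglandin E receptors, which act through cAMP in podocytes, Ptger4 read 7.48, 7.77 and 7.80, above the strict line on 2 of 3 arrays, and Ptger2 was near background on all 3 at 4.26 ± 0.03.

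Nearly all genes of the TGF-β, BMP and activin list were above the limit. Of 33 ligands, receptors, SMADs and targets, 32 were above the limit, 25 above the strict line and 12 high, with a median of 9.20. Of the ligands, Tgfb1 read 9.79, 9.84 and 9.84 and Bmp4 was high at 9.84 ± 0.06. Of the receptors, Bmpr2 (11.62 ± 0.12) and Tgfbr2 (10.83 ± 0.08) were high and Bmpr1b (3.89, the same on each array to 2 decimals) was near background. The signal carriers Smad4 (10.51 ± 0.01) and Smad3 (9.84 ± 0.03), the target genes Id2 (11.03 ± 0.03) and Id3 (10.67 ± 0.09), and the activin trap Fst (11.32 ± 0.07) were high. In the VEGF, PDGF, FGF and EGF families 32 of 41 genes were above the limit, 21 above the strict line and 12 high. The ligands Pdgfc (11.58 ± 0.08) and Hbegf (10.83 ± 0.05) and the receptors Egfr (11.44 ± 0.05) and Met (10.81 ± 0.06) were high. The endothelial VEGF receptors Kdr (6.12 ± 0.15) and Flt1 (6.28 ± 0.02) lay between the lines, while the VEGF coreceptor Nrp1 was high at 11.36 ± 0.06. Hgf (4.05 ± 0.08), Pgf (4.55 ± 0.16), Fgf10 (4.74 ± 0.15) and Erbb4 (5.06 ± 0.06) were near background.

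Of 41 Wnt and Notch genes, 37 (90.2%) were above the limit, 20 (48.8%) above the strict line and 9 (22%) high. All genes had shares of 56.7%, 33.2% and 10%. β-catenin (Ctnnb1, 11.07 ± 0.02), the receptors Fzd6 (11.50 ± 0.02) and Lrp6 (10.73 ± 0.17), the ligand Wnt5a (10.00 ± 0.11) and the Notch ligand Jag1 (11.28 ± 0.06) were high. The inhibitor Dkk1 (5.81 ± 0.05), Wnt2 (5.70 ± 0.11) and Dll4 (5.45 ± 0.06) were near background. Of 40 cytokine and chemokine genes, 32 were above the limit, 24 above the strict line and 12 high. The macrophage growth factor Csf1 read 12.32, 12.29 and 12.30 and the shared receptor subunit Il6st, also called gp130, read 12.26, 12.31 and 12.25. Both were very high. The receptors Ifnar1 (11.07 ± 0.04), Tnfrsf1a (11.03 ± 0.04) and Osmr (10.91 ± 0.05) and the chemokines Cx3cl1 (10.75 ± 0.08) and Ccl17 (10.46 ± 0.19) were high. The acute inflammatory cytokines were near background, with Il6 at 4.18, 3.83 and 4.07, Il1b at 4.27, 4.04 and 4.05 and Tnf at 5.57, 5.29 and 5.27.

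ER chaperones and stress sensors formed a strong list in the vehicle-treated cells. Of 28 measured, 27 were above the limit, 24 above the strict line, 19 high and 5 very high, with a median of 10.01. Calreticulin (Calr) read 12.77, 12.74 and 12.76 and BiP (Hspa5) read 10.68, 10.81 and 10.75. The folding factors Canx (12.40 ± 0.06), Hsp90b1 (12.25 ± 0.03) and Pdia3 (12.23 ± 0.02) were very high. Atf4 (10.80 ± 0.01), the effector of the PERK arm, was high, and the gut-type sensor Ern2 was near background at 5.60 ± 0.12. A sequence element already known from genes of this kind was looked up in the promoters of this list. The ER stress element, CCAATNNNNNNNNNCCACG, is the sequence through which the factors Atf6 and Xbp1 act, and it begins with a CCAAT box. It was found on either strand in 8 of 24 promoters of the list (33.3%; Hspa5, Hsp90b1, Calr, Canx, Pdia6, Dnajc3, Creld2 and Ero1b) and in 27 of 15778 promoters overall (0.171%). A CCAAT box alone was found in 20 of 24 (83.3%) against 38.2% overall. By level class the ER stress element was found in 0.237% of promoters near background and 0.142% above the limit. It was found in 0.52% of high and 1.96% of very high ones, and its carrier Ero1b lay between the lines at 6.47. The list was chosen by function, so the share in it says nothing on level. The Hspa5 sequence before the start is shown as the classical case, with the element in capitals, its first base 65 bases before the start (GRCm38.p6, chr2:34771840-34772089, plus strand).
Hspa5: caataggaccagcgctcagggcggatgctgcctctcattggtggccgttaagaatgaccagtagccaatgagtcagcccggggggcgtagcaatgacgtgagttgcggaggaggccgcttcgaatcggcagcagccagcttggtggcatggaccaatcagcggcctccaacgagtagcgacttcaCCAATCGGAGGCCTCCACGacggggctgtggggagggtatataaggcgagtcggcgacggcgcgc

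Of 29 cell cycle and growth arrest genes, 27 were above the limit, 14 above the strict line and 8 high (27.6%, against 10.0% of all genes by the definition of high). The inhibitor Cdkn1a (p21) read 12.92, 12.80 and 12.81, and the cyclin Ccnd2 read 12.57, 12.68 and 12.67. Both were very high. The cyclin Ccnd1 was high at 10.75 ± 0.05. The p53 regulator Mdm2 (11.68 ± 0.03), the arrest gene Gas1 (10.98 ± 0.08), Rb1 (10.77 ± 0.07) and the inhibitors Cdkn2b (10.58 ± 0.05) and Cdkn2a (10.50 ± 0.12) were high, although another probe set of Rb1 was not above the limit. Of the mitotic genes, Birc5 (5.24 ± 0.13) and Bub1 (5.53 ± 0.18) were near background. Mki67, the proliferation antigen, read 7.09, 7.29 and 7.23 and Top2a read 6.67, 7.04 and 7.10, all between the lines, and both were named after their values had been seen. All 20 glycolysis and respiration genes were above the limit, 18 were above the strict line and 14 high. Gapdh read 13.22, 13.16 and 13.16 and Cox6a1 13.10, 12.94 and 12.95.

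The 40 highest genes held 9 genes encoded by the mitochondrial genome (among them ND4 at 13.59 ± 0.03 and COX1 at 13.39 ± 0.05) and 4 non-coding RNAs, headed by Rn7sk at 13.69 ± 0.03, the highest gene of all. Among the protein-coding genes of the nucleus, the surface protein Ly6e read 13.45, 13.50 and 13.53 and the tetraspanin Cd81 read 13.44, 13.50 and 13.42. Ferritin heavy chain (Fth1, 13.36 ± 0.03), the class I partner B2m (13.33 ± 0.02), the IGF-binding Igfbp7 (13.21 ± 0.04), the lysosomal protease Ctsd (13.06 ± 0.02), moesin (Msn, 12.93 ± 0.02) and the amyloid precursor App (12.74 ± 0.02) followed, although another probe set of Msn was near background at a mean of 4.07. The transcriptional coregulator Cited2 read 13.09, 13.07 and 13.06. Of the 221 very high genes, 17 belonged to the matrix lists, 14 to the mesenchymal, 13 to the cell state, 9 to the podocyte, 5 to the signalling, 2 to the other cell and 1 to the tubular lists, and a gene can stand in more than 1 list. Neighbours in this order often cannot be told apart. Within the median SD of genes above the limit, B2m at rank 10 had 8 other genes, Timp2 at rank 221 had 50, and the gene at rank 10000 had 525.

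Among transcription factors outside the lists, the highest by family prefix were Stat3 (11.16 ± 0.05), which carries the gp130 signal, Hoxb9 (11.09 ± 0.08), Klf3 (10.75 ± 0.13), Foxf1 (10.63 ± 0.06), Sox4 (10.50 ± 0.04), Foxj2 (10.22 ± 0.08), Stat6 (10.17 ± 0.06), Hoxc10 (10.10 ± 0.02), Hoxb6 (10.03 ± 0.09) and the clock repressor Nr1d1 (9.94 ± 0.10). Hox genes set the position of tissues along the body axis. All 9 Hoxa genes measured, 9 of 10 Hoxb genes, 7 of 9 Hoxc genes and 4 of 8 Hoxd genes were above the limit, and the other 4 Hoxd genes were near background. All 4 Tead genes, the DNA-binding partners of the Hippo coactivators, were above the limit. Above it too were 35 of 43 Fox, 14 of 17 Klf, 5 of 6 Stat and 12 of 19 Sox genes. So were 16 of 23 Nr, 9 of 13 Tbx, 5 of 7 Irf and 4 of 6 Gata genes. With 56.7% of all genes above the limit, such counts in small families say little.

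A few genes differed between the DMSO replicates. Among genes above the limit the widest spread was that of Nme1, a nucleoside diphosphate kinase, at 7.13, 8.43 and 8.26. The autophagy protein Vmp1 read 6.51, 7.63 and 7.71, the phosphatase subunit Ppp2ca 7.78, 8.62 and 8.66, and the protease Prss23 10.49, 11.37 and 11.26. The lowest of the 3 probe sets of Ppp2ca was near background at a mean of 4.95. In each of these genes replicate 1 was the low array, apart from the other 2. Some of the 15 genes with the widest spread went another way. Krtap5-2 read 6.60, 6.70 and 5.82, with replicate 3 low, and Mir680-2 read 9.64, 9.10 and 8.77, with replicate 1 high. Between replicates 1 and 2, 14 of 22180 genes differed by at least 1 log2 unit, between 1 and 3, 27, and between 2 and 3, 10. Among the 200 genes above the limit with the largest SD, replicate 1 was the array farthest from the other 2 in 117, replicate 2 in 18 and replicate 3 in 65. The share for replicate 1 was 58.5% there, against 46.9% of all genes above the limit and 42.8% of all genes. These counts measure distance and give no direction.

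Promoters were described for 15778 genes that matched the RefSeq promoter table by symbol, sensory receptor genes left out, in windows from 250 bases before to 50 after the start. The CpG ratio compares the CpG pairs found with the number expected from the C and G content. Its median was 0.272 for genes near background, 0.758 for genes above the limit and 0.813 for high genes. The GC box GGGCGG, bound by Sp1-type factors, was found on either strand in 24.8% of promoters near background, 64.2% above the limit and 72.0% of high genes, against 50.3% of all. The TATA box TATAAA ran the other way, at 17.8%, 7.14% and 7.13%, against 10.9% of all. The very high genes departed from that order with TATAAA in 24 of 153 promoters (15.7%). These motifs can overlap or share a window, and a match says only that the letters are there.

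**Figure D5:**
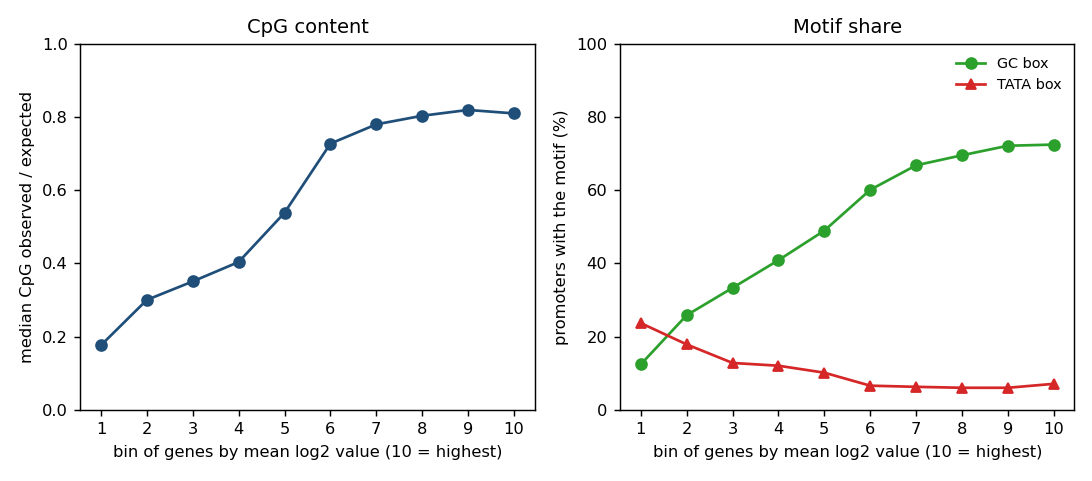
Left, median CpG observed over expected of promoters in 10 equal bins of genes ordered by mean DMSO log2 value (bin 10 is the highest). Right, percent of promoters with a GC box (circles) and a TATA box (triangles) in the same bins. From the lowest to the highest bin the CpG ratio goes from 0.176 to 0.810, the GC box from 12.4% to 72.5% and the TATA box from 23.7% to 7.10%.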

How the data were processed

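The 9 arrays of the series form 3 groups of 3, and the DMSO group was described here. The authors deposited log2 values for each probe set of each array, and the submitters' processing notes name affy and RMA as the tools. Tool versions, array annotation and genome build: none is given in the sources used here. RMA makes the arrays' distributions alike, so differences in total RNA cannot be seen. Scanner files were not used here.

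Of 41345 probe sets, the platform annotation gives 1 symbol to 23521, several to 1814 and none to 16010. Of the first, 23328 matched a RefSeq table of GRCm38.p6 by Entrez ID without any symbol changing. Where a gene had several probe sets, that with the largest 9-array mean was kept, leaving 22180 genes. Of 1082 genes with more than 1 probe set, 477 had probe sets of different classes.

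Groups and replicate numbers came from the sample titles. Per gene the mean, SD and rank over the DMSO arrays were computed (pandas 2.3.3, numpy 2.4.6, matplotlib 3.10.9, Python 3.11.15), with the classes defined in the report. The class rule was tested on simulated data. Of 835 listed genes 781 were measured. The members and lists were chosen with earlier results of these data known, and no p-value is given. The genes named were taken from the 40 highest genes, per list up to 10 highest above the limit, up to 10 lowest near background and every mixed gene, all members of the podocyte and basement membrane lists, the 15 genes above the limit with the largest SD, and the 10 highest other transcription factors by family prefix. Clone and predicted symbols were not named, and genes outside the rule are marked. Of 16990 genes with a promoter matched by symbol, 15778 were described, the first promoter being used for 2650 with several.

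The alternatives were other limits (99th percentile, vomeronasal and taste receptor genes, the median of all genes), other choices of probe set, centred arrays, the median of the arrays, each array left out, rank among all probe sets, and 4 equal classes of the mean for promoters. The strict line was added after seeing the data.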

Additional observations from a re-analysis of the deposited data

Results flagged for a closer look

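Signals were also found in probe sets that entered no count above, because the annotation gives them no symbol or several. Of 16010 probe sets with no symbol, 5044 (31.5%) were above the olfactory limit on all 3 DMSO arrays, and 184 had means in the range of the very high genes. Of 1814 probe sets with several symbols, 959 (52.9%) were above the limit and 35 were in that range. These probe sets cannot be tied to 1 gene here. The rule for outlying samples needs at least 4 samples in a group and was not applied to the 3 DMSO arrays.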

How the results depend on the processing

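Of 569 counts recomputed under an alternative, 536 stayed within 1.5 times the reported count and 33 moved. The 569 include the size of the very high class. That size was fixed by definition in every setting but the rank among all probe sets. Most of the 33 moved with the line that a gene must pass. With the strict line in place of the olfactory limit, genes above numbered 7355 and genes near background 13819. The members above were then 11 for the slit diaphragm, 5 mesangial, 10 fibroblast, 3 proximal tubule, 1 loop and distal, 5 epithelial, 1 endothelial, 3 leukocyte, 5 collagen, 3 receptor, 21 for the VEGF, PDGF, FGF and EGF families, 20 Wnt and Notch and 14 cell cycle genes. With the 99th percentile of olfactory receptor genes they were 6 mesangial, 5 proximal, 4 loop and distal, 10 epithelial, 2 endothelial, 4 leukocyte, 3 liver, muscle and neuron, 9 collagen and 5 receptor genes. With the median of all genes they were 7 mesangial, 5 proximal, 2 endothelial, 5 leukocyte and 5 liver, muscle and neuron genes. Loop and distal genes above numbered 12 with vomeronasal and taste receptor genes as the limit and 11 with the median of the 3 arrays. High ribosomal protein genes numbered 5 with the mean of the probe sets and 4 with the lowest probe set. The promoter CpG difference between genes above the limit and near background was 0.486, and 0.564 between the highest and lowest of 4 equal classes of the mean. Leaving out a DMSO array gave between 12650 and 12959 genes above the limit, and no list count moved by more than 1.5 times. Of the 221 very high genes, 217 to 219 were kept when an array was left out, 183 with the lowest probe set and 200 in the rank among all probe sets. No paired analysis was possible because a single group was described and no result comes from a test. The signal over background limits the rest, since the lines overlap the signals of genes that every cell uses.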

Other observations

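Cell cycle genes were the list with the largest share of members lowest on DMSO replicate 1. Of 29 measured, 21 (72.4%) had their lowest value there, against 36.5% of all genes, 2 had it on replicate 2 and 6 on replicate 3. The DNA replication genes Pcna (9.06, 9.24 and 9.43) and Rrm2 (6.93, 7.28 and 7.45) and the mitotic kinase Cdk1 (7.01, 7.36 and 7.68) were examples. The lowest probe set of Rrm2 was near background at a mean of 3.04. The 3 genes and the list were picked out after their values had been seen.

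Several very high genes were in none of the lists, and they too were picked out after their values had been seen. Among them were the natriuretic peptide clearance receptor Npr3 (12.44, 12.48 and 12.50), the prostaglandin transporter Slco2a1 (12.50, 12.43 and 12.34), the small heat shock protein Cryab (12.54, 12.41 and 12.37), neuregulin 1 (Nrg1, 12.08 ± 0.01) and tissue factor (F3, 11.90 ± 0.11). Bicc1, an RNA-binding protein of the kidney tubule, was very high at 11.90 ± 0.04.

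A few very high symbols belong to tissues unlike the kidney. The sperm tail gene Odf1 read 12.91, 12.77 and 12.78, and the vomeronasal receptor Vmn1r233 read 12.33, 12.29 and 12.37. Each has another probe set that was near background, with means of 5.42 and 3.93. The mast cell gene Ms4a2 read 11.82, 11.93 and 12.08. The highest olfactory receptor gene, Olfr1360, read 8.88, 8.19 and 8.32, above the strict line on all 3 arrays.

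The X-inactivation RNA Xist, transcribed in female cells, was high at 10.30, 10.48 and 10.51. The Y-linked genes Kdm5d (3.63 ± 0.27), Uty (3.43 ± 0.04) and Eif2s3y (3.73 ± 0.12) were near background. The labels do not give the sex of the cells.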
